A study of Bombyx mori with 6 samples.

Results

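The larval storage proteins of the silkworm, Bombyx mori, were followed here through 4 gene models of 16877 listed with counts. They were chosen by identifier from their product names. KWMTBOMO13992 is named sex-specific storage-protein 1 (SP1), KWMTBOMO01262 sex-specific storage-protein 2 (SP2) and KWMTBOMO01263 silkworm storage protein (SSP). The fourth, KWMTBOMO01258, is named basic juvenile hormone-suppressible protein 2-like (BJSP2-like). All 4 carry the same 3 hemocyanin domains in the Pfam column of the table, the all-alpha, copper-containing and ig-like domains. The closest Swiss-Prot entry of SSP is the alpha subunit of arylphorin from the moth Manduca sexta, and that of BJSP2-like comes from the moth Trichoplusia ni.

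Storage proteins, or hexamerins, are relatives of the oxygen carrier hemocyanin that assemble from 6 subunits and bind no oxygen. The fat body, which in insects combines tasks of liver and adipose tissue, makes them in bulk during the last larval instar and secretes them into the hemolymph. It takes them back up before pupation as a store of amino acids for building the adult. SP1 is rich in methionine and in the silkworm accumulates mainly in females late in larval life, whereas SP2 is made by both sexes. Arylphorins are storage proteins rich in aromatic amino acids. In other moths the juvenile hormone-suppressible proteins were named for being lowered by juvenile hormone, the hormone that keeps an insect larval.

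RNA sequencing libraries came from larvae of the P50 strain, 3 labelled siNC and 3 labelled siUFBP1. In the protocol, 30 larvae were used, and on day 3 of instar 5 each received 2.5 µg of a negative control small interfering RNA or of one against UFBP1. UFBP1 sits in the membrane of the endoplasmic reticulum and takes part in UFMylation, the coupling of the ubiquitin-like protein UFM1 to its substrates. All larvae, controls included, were given the baculovirus BmNPV 12 h after the siRNA. Fat body was taken at 24, 48 and 72 h, with no time given for a single library. The labels name fat body as the tissue and also BmN, an ovary-derived cell line, and the protocols describe transfection of BmN cells too. Neither the labels nor the protocols give the sex of the larvae or how many stand behind a library. Since nothing says that replicates are separate animals, the spread that enters the p-values may be technical only.

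Totals ran from 25570725 to 53204480 counts per library. Fat body genes were present in all libraries, with apolipophorins (KWMTBOMO15892), the lipid carrier of the hemolymph, at 4972 to 5229 CPM in siNC and 2589 to 2659 in siUFBP1. CPM here are counts scaled to a common library size with TMM factors, which correct for library composition. The log2 fold change of apolipophorins, siUFBP1 over siNC, was -0.958 with these factors and -0.16 with library size alone (edgeR). The transcript of the siRNA target, UFBP1 (KWMTBOMO13599), stood at 33.96 ± 2.71 CPM in siNC and 33.93 ± 1.05 in siUFBP1 (n = 3 each, SD), and these groups overlapped. On the log2 scale siUFBP1 minus siNC came to 0.0043 ± 0.06 (SE, edgeR adjusted p = 0.951). Scaling by library size only put this at 0.80 (edgeR adjusted p = 1.55e-10), and upper quartile scaling put it at -0.14 (edgeR adjusted p = 0.0406), so that both its sign and its call turned with the scaling. The target's transcript thus cannot check the labels, and each direction below is that of the libraries as labelled.

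The 4 genes together held 2.00-fold less of all counts in siUFBP1 than in siNC. In siNC they took 32.84%, 33.62% and 33.28% of the counts of the 3 libraries. In siUFBP1 they took 16.41%, 16.72% and 16.76%. The lowest siNC library was thus far above the highest siUFBP1 library. The mean share went from 33.2% ± 0.391 to 16.6% ± 0.191 (n = 3 each, SD), a difference of -16.6 percentage points. Counting error was small beside this, since the widest 95% Wilson interval of the summed share was ± 0.0177 points. Intervals cover counting error only.

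SP1 made up most of that difference. Its share was 12.45%, 12.91% and 12.77% in the siNC libraries, where it was the gene with the most counts each time. In siUFBP1 it was 1.635%, 1.672% and 1.700%, and SP1 ranked 10 by counts in each library. The means were 12.7% ± 0.239 and 1.67% ± 0.0323 (n = 3 each, SD), 7.62-fold lower in siUFBP1. SP1 alone accounted for 66.5% of the summed difference in share.

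SP2 differed least. It took 10.03%, 10.11% and 9.95% of the counts in siNC and 8.142%, 8.293% and 8.320% in siUFBP1. The groups did not overlap, and the mean share was 1.22-fold lower in siUFBP1. The SP2 share varied by 0.797% (coefficient of variation) among siNC libraries and by 1.16% among siUFBP1 libraries.

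SSP lay between SP1 and SP2. Its share was 10.34%, 10.57% and 10.54% in siNC and 6.628%, 6.750% and 6.735% in siUFBP1, with no overlap and a mean 1.56-fold lower. It accounted for 22.7% of the summed difference and SP2 for 10.7%.

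BJSP2-like was a minor member. It held 5817, 6734 and 5719 counts in siNC, 0.0207% to 0.0212% of each library, and 1107, 1048 and 2401 counts in siUFBP1, 0.0041% to 0.00451%. The last of these libraries has about the summed depth of the other siUFBP1 libraries, so its count is higher while its share is not far apart. The mean share was 4.93-fold lower in siUFBP1, again with no overlap. For each of the 4 genes and for their sum, an exact two-sided permutation test on the shares gave p = 0.1, the smallest that 3 against 3 libraries allow.

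**Figure D1:**
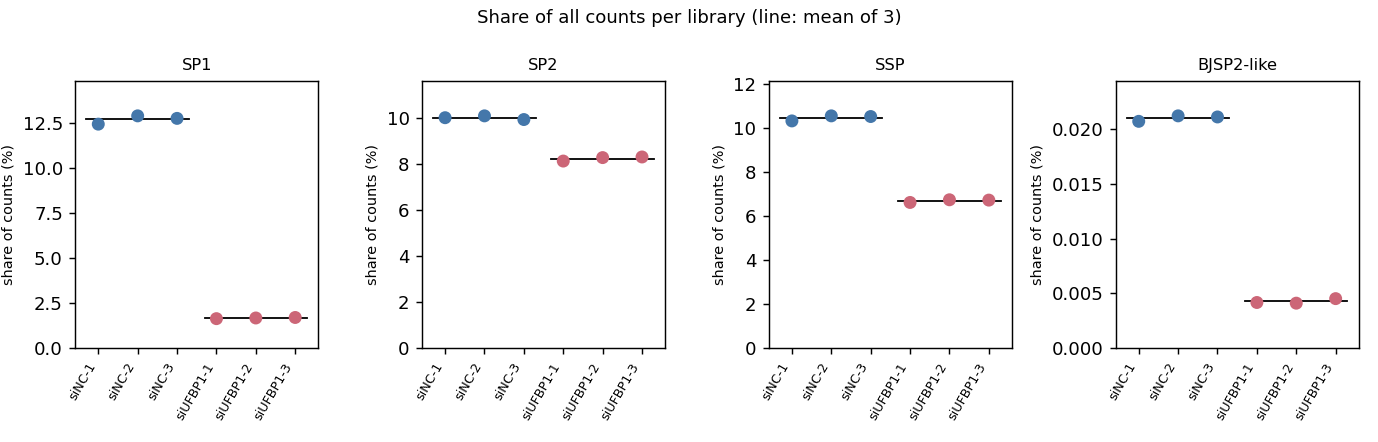
Share of all counts (%, linear axes from 0) of SP1, SP2, SSP and BJSP2-like in each library, siNC in blue and siUFBP1 in red, with a line at the mean of 3. SP1 goes from 12.7% to 1.67%, whereas SP2 goes only from 10.03% to 8.25%.

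Per length, the order of the genes differed between the groups. FPKM, the authors' values scaled for gene length and mapped reads, allow levels of different genes to be compared. In siNC SP1 was highest with 46310 ± 1150 FPKM, followed by SSP with 40880 ± 737 and SP2 with 38480 ± 452 (n = 3 each, SD). No siNC library of one of these genes overlapped with the next in that order. In siUFBP1 SP2 was highest with 31280 ± 236 FPKM, then SSP with 25830 ± 175 and SP1 with 6006 ± 88.9 (n = 3 each, SD), again without overlap. BJSP2-like was last in both groups, at 74.7 ± 1.39 and 14.96 ± 0.731 FPKM (n = 3 each, SD). By FPKM, SP1 ranked 5 of all genes in each siNC library and 11 in each siUFBP1 library. SP2 went from rank 7 to rank 5, and SSP ranked 6 in all libraries.

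Ratios between these genes within a library need neither a total nor a scaling factor. The ratio of SP1 to SP2 counts was 1.241, 1.277 and 1.284 in siNC and 0.2008, 0.2016 and 0.2043 in siUFBP1. SP1 counts thus exceeded SP2 counts in every siNC library and were far fewer in every siUFBP1 library, a 6.27-fold difference in ratio. The ratio of SP1 to SSP went from 1.213 ± 0.00873 to 0.249 ± 0.00302 (n = 3 each, SD), 4.87-fold lower.

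SP2 and SSP, with neighbouring identifiers, kept the closest ratio of any pair. SP2 to SSP was 0.9704, 0.9565 and 0.9445 in siNC and 1.228, 1.229 and 1.235 in siUFBP1. SSP thus had more counts than SP2 in each siNC library and fewer in each siUFBP1 library, a 1.29-fold difference. SP1 and BJSP2-like formed the next closest pair, with 605 ± 3.89 SP1 counts for each BJSP2-like count in siNC and 392 ± 15.6 in siUFBP1 (n = 3 each, SD), 1.54-fold lower.

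The other pairs set a weakly and a strongly lowered gene against each other. SP2 to BJSP2-like went from 478 ± 6.53 to 1941 ± 91, and SSP to BJSP2-like from 499 ± 0.422 to 1578 ± 78.5 (n = 3 each, SD). For none of the 6 ratios did the groups overlap. The exact two-sided permutation test on log2 ratios gave p = 0.1 for each, the smallest possible, and 0.1 after Benjamini-Hochberg adjustment over the 6. The 4 genes are of 1 family, and the sources used here do not give how reads shared between similar copies were assigned.

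**Figure D2:**
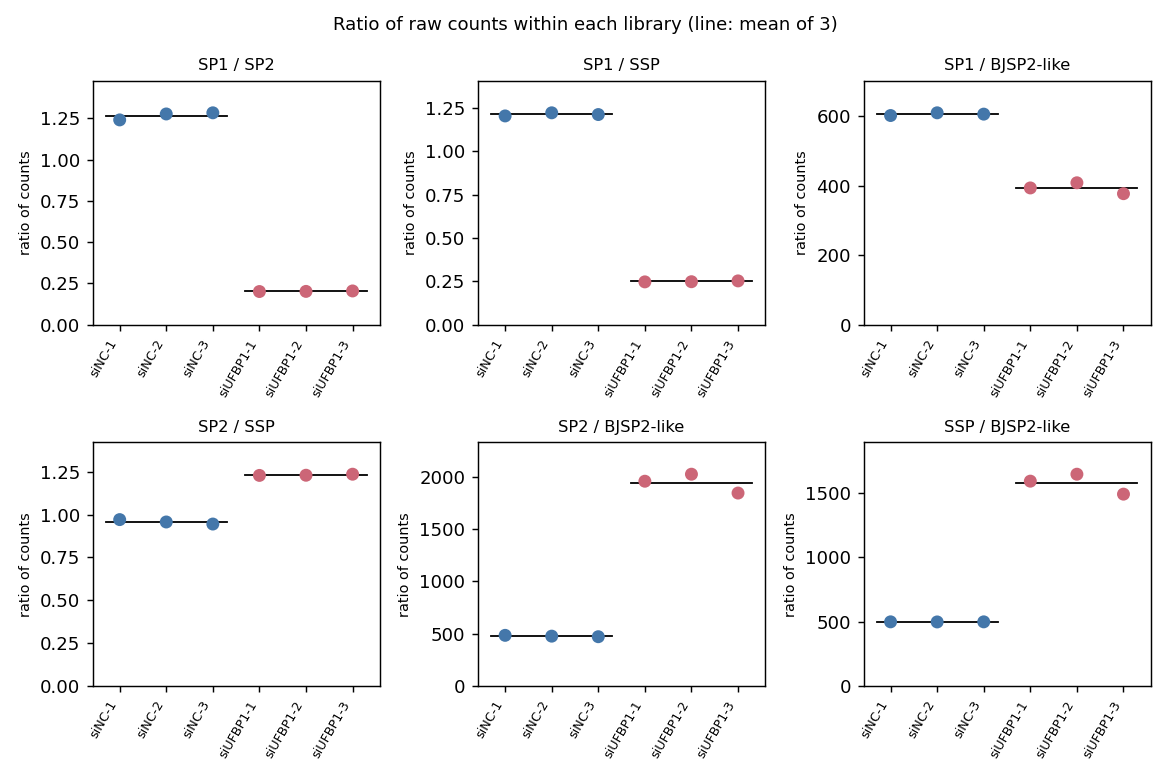
Ratio of raw counts (linear axes from 0) for the 6 pairs of storage proteins in each library, siNC in blue and siUFBP1 in red, with a line at the mean of 3. SP1 to SP2 falls from 1.27 to 0.202, whereas SP2 to SSP crosses 1, from 0.957 to 1.231.

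Read as a composition of the 4, the largest part passed from SP1 to SP2. SP1 was 38.24% ± 0.282 of their summed counts in siNC and 10.03% ± 0.0935 in siUFBP1 (n = 3 each, SD). SP2 was 30.17% ± 0.335 and 49.62% ± 0.0213, and SSP 31.53% ± 0.114 and 40.32% ± 0.113 (n = 3 each, SD). BJSP2-like stayed under 0.1% in all libraries.

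Across all genes the 4 were then tested with edgeR's quasi-likelihood test on the raw counts, with p-values adjusted over 10729 genes. SP1 went from 167600 ± 4070 to 12670 ± 321 CPM (n = 3 each, SD), a log2 fold change of -3.73 ± 0.03 (SE, adjusted p = 3.74e-23). BJSP2-like went from 276.9 ± 5.75 to 32.29 ± 0.556 CPM (n = 3 each, SD), a log2 fold change of -3.10 ± 0.04 (SE, adjusted p = 2.67e-21). SSP fell by 1.44 ± 0.03 and SP2 by 1.08 ± 0.03 on the log2 scale (SE, edgeR adjusted p = 1e-17 and 2.03e-16).

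All 4 genes fell, and all 4 by at least 2-fold. Of all tested genes, 28.4% were lower, 5.11% were lower by at least 2-fold and 40.0% were higher, and 29.8% were lower with no overlap between the groups. Ordered from the most lowered gene, SP1 stood at place 12, BJSP2-like at 26, SSP at 202 and SP2 at 433. The split of all calls, 4293 higher and 3043 lower, was 3641 and 3806 with upper quartile scaling and 8604 and 452 with library size alone. The size of a fold change thus depended on the scaling.

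The direction of the 4 was the same under each scaling tried. With library size alone, where the median of all genes stood at 0.92 instead of 0.11, the log2 fold changes were -2.93 for SP1, -2.30 for BJSP2-like, -0.64 for SSP and -0.28 for SP2. All 4 remained lower (edgeR, largest adjusted p = 1.57e-09), in a setting where 4.21% of all genes were lower and 80.2% higher. SP2 was then 1.22-fold lower instead of 2.11-fold, and SSP 1.56-fold instead of 2.71-fold. With upper quartile scaling SP1 was at -3.87 and SP2 at -1.22. Leaving the 4 genes out of the totals and the TMM factors gave -3.73 and -1.08 for these genes.

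**Figure D3:**
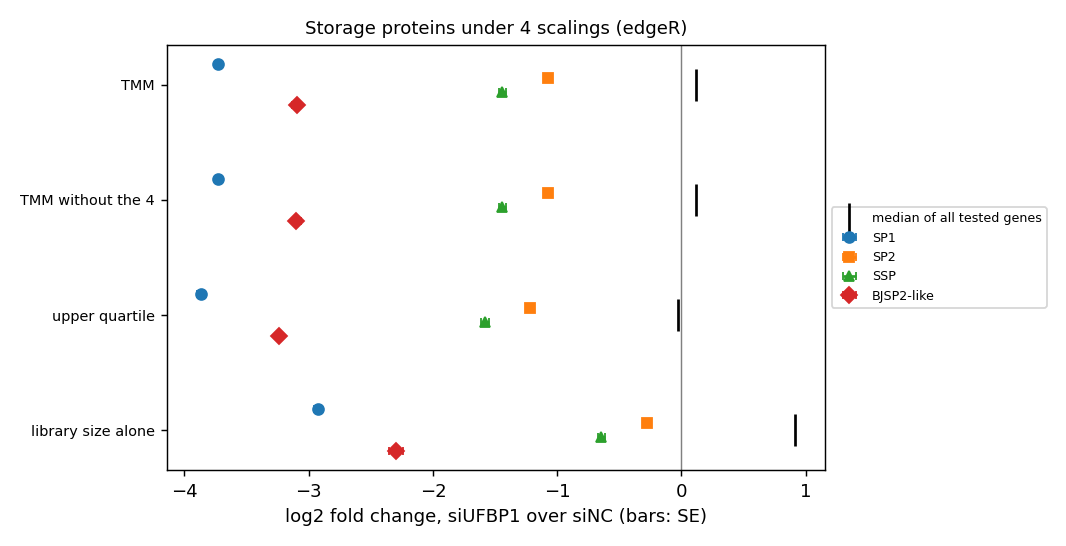
Log2 fold change, siUFBP1 over siNC, of the 4 storage proteins under 4 scalings in edgeR, with bars for the SE (smaller than most symbols) and a black tick at the median of all tested genes. All points lie left of 0, from -0.28 for SP2 with library size alone to -3.87 for SP1 with upper quartile scaling.

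The storage proteins were also set against other products of the fat body in the same library. The 30 kDa lipoproteins, another family of hemolymph proteins made in bulk by the larval fat body, took 40.1% to 41.3% of the counts in siNC and 30.4% to 32.2% in siUFBP1. Of 19 tested lipoprotein genes 19 were lower (edgeR), against 28.4% of all genes, with a median log2 fold change of -1.08, as for SP2. With library size alone 11 were lower and 4 higher, against 4.21% and 80.2%, and the median was -0.28, again as for SP2. SP1 counts per 30 kDa lipoprotein count were 0.3014, 0.3221 and 0.3123 in siNC and 0.05071, 0.05302 and 0.05593 in siUFBP1, 5.86-fold lower. SP2 counts per 30 kDa lipoprotein count were 0.2428, 0.2522 and 0.2433 in siNC and 0.2525, 0.263 and 0.2738 in siUFBP1, slightly higher and nearly touching. SSP counts were 1.20-fold lower by this measure and BJSP2-like counts 3.79-fold lower.

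A list of 11 fat body genes, among them apolipophorins, transferrins and perilipins, held 0.668% to 0.689% of counts in siNC and 0.669% to 0.715% in siUFBP1, so that these groups overlapped. Per count of that list, SP1 was 7.69-fold lower, BJSP2-like 4.98-fold, SSP 1.58-fold and SP2 1.23-fold lower, without overlap between groups. Each of these reference ratios has an exact two-sided permutation p of 0.1, the smallest possible. In the test across genes 10 of the 11 were lower and 1 higher, against 28.4% and 40.0% of all genes, and with library size alone 5 were lower and 5 higher, against 4.21% and 80.2%. In RNA of a whole tissue, fewer fat body cells and less RNA of a gene per cell cannot be told apart.

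Transcripts of other tissues stood beside these differences in the same libraries. Silk protein genes, 8 of 9 with a count somewhere, took 0.05% to 0.053% of counts in siNC and 10.1% to 11.8% in siUFBP1. With silk genes taken out of the total, the log2 change of the SP2 share was -0.11 instead of -0.28, and that of SP1 -2.76 instead of -2.93. Testis and sperm genes, a list of 100, took 0.00472% to 0.0052% in siNC and 0.0800% to 0.0899% in siUFBP1. Of these, 65 had no count in any siNC library, and 4 had no count in any library. In single siNC libraries 73 to 77 of the 100 had no count, whereas 11335 to 11606 of all 16877 gene models had one. A floor of 3 counts in siNC is 0.0945 to 0.111 CPM by library total alone, without the TMM factors. Testis-specific serine/threonine-protein kinase 2 (KWMTBOMO15186) and a tektin (KWMTBOMO16172), a protein of the sperm tail, were among those with no siNC count. Muscle genes took 0.0405% to 0.0422% in siNC and 0.21% to 0.223% in siUFBP1, and cuticle genes 0.0439% to 0.044% and 0.193% to 0.209%. Ovary genes, a list that includes vitellogenins and their receptors, took 0.0153% to 0.0164% in siNC and 0.0229% to 0.0248% in siUFBP1. Of 13 tested 1 was higher, 4 were lower and 8 did not pass (edgeR), where 40.0% of all genes were higher and 28.4% lower. With library size alone 8 of the 13 were higher, where 80.2% of all genes were higher and 4.21% lower. Midgut genes took 0.0671% to 0.0685% and 0.0978% to 0.107%, and hemocyte genes 0.0244% to 0.0254% and 0.0308% to 0.0325%, in the same order of groups. Of 37 tested midgut genes 26 were higher and 6 lower (edgeR), where 40.0% of all genes were higher and 28.4% lower. Of 33 tested hemocyte genes 9 were higher and 18 lower. With library size alone 35 midgut genes were higher and 0 lower, and 18 hemocyte genes were higher and 7 lower. In that scaling 80.2% of all genes were higher and 4.21% lower. Both lists rest on product names, and neither is specific to its tissue. The midgut list also holds antichymotrypsins and cytosolic carboxypeptidases, and the hemocyte list also disintegrin metalloproteinases and integrin-binding proteins. The part of these tissues, or of the sex of the larvae, in the storage protein values was not tested.

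**Figure D4:**
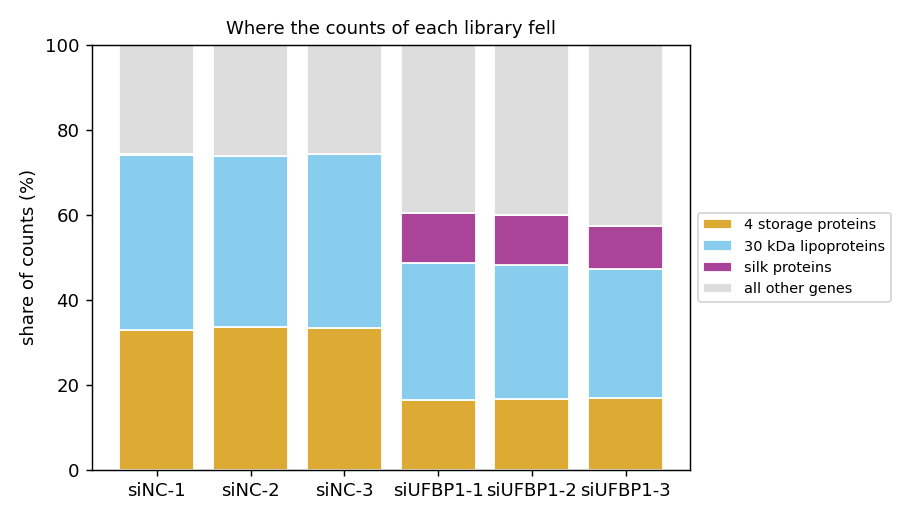
Stacked shares of counts (%, 0 to 100) in each library for the 4 storage proteins, the 30 kDa lipoproteins, silk proteins and all other genes. The storage part goes from 32.84% to 33.62% in siNC to 16.41% to 16.76% in siUFBP1, and silk proteins take 10.1% to 11.8% in siUFBP1.

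Since SP1 is female-biased, genes of yolk and sex determination were looked up by product name. Of 10 tested, none was higher, 2 were lower and 8 did not pass (edgeR), where 40.0% of all genes were higher and 28.4% lower. The median log2 fold change was -0.10 against 0.11 over all genes. The list held 0.00389% to 0.00396% of counts in siNC and 0.00414% to 0.00428% in siUFBP1. The genes that fell were a transformer-2 homolog (KWMTBOMO04769), an RNA-binding splicing factor, from 36.05 ± 0.225 to 18.38 ± 0.805 CPM (n = 3 each, SD), and a sex-lethal homolog (KWMTBOMO09503), with a log2 fold change of -0.31 ± 0.12 (SE, edgeR adjusted p = 0.0342). The sex-lethal call did not hold without siNC replicate 1, siUFBP1 replicate 2 or siUFBP1 replicate 3 (edgeR adjusted p = 0.109, 0.0637 and 0.131). Scaling by library size put the gene higher, at 0.50. In that scaling, where 80.2% of all genes were higher and 4.21% lower, 6 of the 10 were higher and 1 lower, the transformer-2 homolog at -0.18 (edgeR adjusted p = 0.0195).

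Vitellogenins, the yolk precursors that females make at a later stage, had few counts in both groups. The vitellogenin gene with the most counts (KWMTBOMO07482) had 7, 11 and 11 counts in siNC and 18, 13 and 48 in siUFBP1 (edgeR adjusted p = 0.491). Doublesex, the factor that carries sexual identity in insects, is listed as 2 gene models. One (KWMTBOMO15373) had 8, 8 and 8 counts in siNC and 15, 11 and 23 in siUFBP1 (edgeR adjusted p = 0.936), and the other (KWMTBOMO15371) had 17, 18 and 0 and then 0, 0 and 3, too few to be tested. These genes and the sex-lethal homolog were singled out after their values were seen.

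The wider family was defined by a hemocyanin domain in the Pfam column, a choice made after seeing the data. It held 6 further genes, of which 4 fell, 1 rose and 1 did not pass (edgeR), against 28.4% of all genes lower and 40.0% higher. With library size alone 2 fell and 2 rose, against 4.21% lower and 80.2% higher. Their identifiers place 3 of them beside the members, since KWMTBOMO01258, KWMTBOMO01259 and KWMTBOMO01261 to KWMTBOMO01264 are all storage protein relatives, interrupted by a troponin C gene (KWMTBOMO01260).

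Among the storage protein relatives the arylphorin subunit beta-like gene (KWMTBOMO01259) stood at 299.7, 297.6 and 293.3 CPM in siNC and 72.03, 77.08 and 76.38 in siUFBP1. It fell with a log2 fold change of -1.98 ± 0.03 (SE, adjusted p = 8.55e-19, edgeR), between SSP and BJSP2-like. The acidic juvenile hormone-suppressible protein 1 (KWMTBOMO01264), listed as a partial gene model of low quality, went from 46.35 ± 0.405 to 23.96 ± 0.895 CPM (n = 3 each, SD). The hexamerin-1.1-like gene (KWMTBOMO01261) went from 5.258 ± 0.281 to 3.46 ± 0.103 CPM (n = 3 each, SD). Both lost their calls with library size alone, where the log2 fold changes were -0.15 and 0.20 (edgeR adjusted p = 0.0514 and 0.156).

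The troponin C gene in the middle of this run of identifiers, a calcium sensor of muscle, had a log2 fold change of 1.18, in the opposite direction to the 6 storage protein relatives around it under TMM scaling, though the hexamerin-1.1-like gene turned to 0.20 with library size alone. The phenoloxidases, hemocyanin relatives that oxidize phenols in blood clotting and melanin formation, did not share one direction. Subunit 1 (KWMTBOMO09392) went from 10.25 ± 1.02 to 4.05 ± 0.257 CPM, and subunit 2 (KWMTBOMO09804) from 13.35 ± 0.355 to 18.21 ± 0.37 CPM (n = 3 each, SD). The subunit 1-like gene (KWMTBOMO09393) did not pass (log2 fold change -0.27 ± 0.22 SE, edgeR adjusted p = 0.285), whereas scaling by library size put it higher, at 0.54 (edgeR adjusted p = 0.0266).

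**Figure D5:**
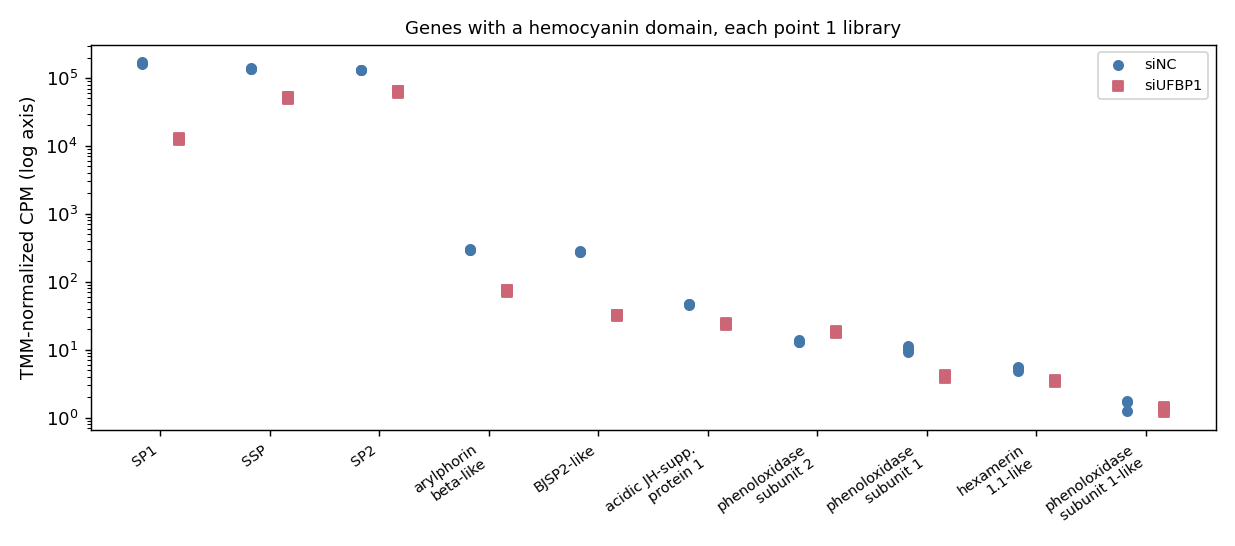
TMM-normalized CPM (log axis) of the 10 genes with a hemocyanin domain, each point 1 library, siNC as blue circles and siUFBP1 as red squares. CPM is not per length, so groups are compared within a gene only. With TMM scaling 8 genes, the chosen storage proteins among them, are lower in siUFBP1 without overlap, against 29.8% of all tested genes. Phenoloxidase subunit 2 is higher, and the subunit 1-like gene overlaps. The hexamerin-1.1-like gene turns to a log2 fold change of 0.20 under library size scaling, and the acidic juvenile hormone-suppressible protein is at -0.15. Neither passes there (edgeR).

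Juvenile hormone and ecdysone, the molting hormone, time storage protein synthesis in insects, and their genes were listed by product name. Among 29 tested juvenile hormone genes 12 rose, 12 fell and 5 did not pass (edgeR), and their median log2 fold change was 0.27 against 0.11 over all genes. The share that rose is close to the 40.0% of all genes, and 28.4% of all genes fell. Scaled by library size, 21 rose and 2 fell, where 80.2% of all genes rose and 4.21% fell. Juvenile hormone esterase (KWMTBOMO14919), which inactivates the hormone, went from 456.8, 454.1 and 464.8 to 265.5, 261.9 and 270.5 CPM, but did not pass with library size alone (log2 fold change 0.013, edgeR adjusted p = 0.8). An esterase-like gene (KWMTBOMO14918) went from 36.58 ± 2.37 to 9.619 ± 0.756 CPM (n = 3 each, SD), and another (KWMTBOMO13553) had 0, 3 and 0 counts in siNC and 638, 529 and 1153 in siUFBP1. A farnesoic acid O-methyltransferase gene (KWMTBOMO03601), named for a step of hormone synthesis, rose from 2.189 ± 0.707 to 28.94 ± 1.07 CPM (n = 3 each, SD).

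Receptors and direct targets of the hormones were looked at outside the naming rule. The juvenile hormone receptor methoprene-tolerant (KWMTBOMO04442) stood at 17.8, 18.4 and 15.9 CPM in siNC and 10.5, 11 and 11.1 in siUFBP1 (edgeR adjusted p = 1.71e-07), and it did not pass with library size alone (adjusted p = 0.19, log2 fold change 0.13). Its target Kruppel homolog 1 (KWMTBOMO02132) overlapped between groups at 0.643 to 1.26 and 0.936 to 1.43 CPM (edgeR adjusted p = 0.415), and was higher with library size alone, at 1.07 (adjusted p = 0.00125, edgeR). The ecdysone receptor (KWMTBOMO05605) was at 2.23 to 2.61 and 1.12 to 1.59 CPM (edgeR adjusted p = 0.000967, against 0.924 under library size scaling). Its partner ultraspiracle (KWMTBOMO01855) overlapped at 5.69 to 6.91 and 6.35 to 7.59 CPM (edgeR adjusted p = 0.289), and was higher under library size scaling, at 0.94 (edgeR adjusted p = 5.7e-08).

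Among 16 tested ecdysone genes 4 rose, 6 fell and 6 did not pass (edgeR), where 40.0% of all genes rose and 28.4% fell, and their median log2 fold change was 0.04. Scaled by library size, 10 rose and 3 fell, where 80.2% of all genes rose and 4.21% fell. An ecdysteroid-inducible relative of angiotensin-converting enzyme (KWMTBOMO05338) went from 189.7 ± 11.9 to 86.83 ± 1.07 CPM (n = 3 each, SD). The ecdysone-induced factor E74 (KWMTBOMO08597) went from 13.56 ± 0.884 to 6.835 ± 0.497 CPM (n = 3 each, SD) and did not pass with library size alone (adjusted p = 0.0731, edgeR). Broad-complex core protein (KWMTBOMO13118), also on this list, went the other way, from 10.15 ± 0.695 to 12.14 ± 0.43 CPM (n = 3 each, SD). It rose by 0.27 on the log2 scale (edgeR adjusted p = 0.00586), and by 1.07 when scaled by library size.

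The genes most like each storage protein were ranked among genes with a mean of at least 100 CPM. The measure was the root mean square difference of log2 CPM over the 6 libraries, each gene centred on its own mean. With 2 groups that lie far apart it mostly reflects the size of the fold change, and it is given as a description. For SP1 the closest gene was synaptic vesicle glycoprotein 2B (KWMTBOMO12490), a membrane protein of the transporter superfamily, at a distance of 0.0281. BJSP2-like came next, at 0.316, followed by the calcium-binding calexcitin-2 (KWMTBOMO01582) at 0.34.

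For BJSP2-like the order was calexcitin-2 at 0.0465, an uncharacterized gene (KWMTBOMO01267) at 0.083 and SP1 at 0.316. The uncharacterized gene has an identifier close to the run of storage protein relatives, and went from 2869 to 375.1 mean CPM. For SP2 they were phytanoyl-CoA dioxygenase (KWMTBOMO15453), a peroxisomal enzyme of fatty acid breakdown, at 0.0209, ommochrome-binding protein (KWMTBOMO14297), a pigment carrier of the hemolymph in Manduca sexta, at 0.0325, and an uncharacterized gene (KWMTBOMO16333) at 0.0326. For SSP they were 10-formyltetrahydrofolate dehydrogenase (KWMTBOMO09597), an enzyme of one-carbon metabolism, at 0.029, an insulin-like peptide gene (KWMTBOMO00268) at 0.0472 and an uncharacterized gene (KWMTBOMO04571) at 0.0479. Between SP2 and SSP themselves the distance was 0.182, and between SP1 and SP2 it was 1.32.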

How the data were processed

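Per the labels' protocols, a SMARTER kit turned total RNA into libraries, and the submitters' processing notes name fastp and HISAT2. For versions, build, read counter and strand setting, the sources used here give nothing. The deposited raw counts per gene are whole numbers per the file headers, and the deposited FPKM values were scaled by the authors for length and library size. A floor of 3 counts corresponds to 0.0564 to 0.117 CPM by library total alone, without the TMM factors.

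The filterByExpr function dropped 6148 gene models with 0.0479% of the counts, and the rest were scaled with TMM in edgeR 4.0.16 (R 4.3.3). TMM factors were 0.746 to 0.767 in siNC and 1.28 to 1.38 in siUFBP1. The quasi-likelihood test had group as its only term, with calls at an adjusted p of 0.05. It was tested on simulated data in which, unlike here, few genes changed. The SE was taken from the fold change and the F statistic. All pairs of replicates differed beyond sampling noise over genes with at least 50 counts (chi-square per degree of freedom 2.70 to 14.8). The pairs with siUFBP1 replicate 3 stood at 11.2 and 14.8, and the others at 2.70 to 3.65. Each library was counted as 1 replicate, though this check cannot tell technical from biological replicates. The named genes were the 4 members, the siRNA target, for each list up to 4 called genes by adjusted p with a mean of at least 5 CPM, and the 3 genes most like each member (prior count 2). Not all of these are printed. Members, lists and tests were chosen with earlier results of these data known. From the lists 79 matches that were other genes by description were removed, though the midgut and hemocyte lists kept some. Alternatives were other scalings, no filter, DESeq2 1.42.0, limma 3.58.1 (voom, and trend on log2 FPKM with a pseudocount of 1 or 0.1), a replicate block, other denominators and leaving out each library.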

Additional observations from a re-analysis of the deposited data

How the results depend on the processing

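All 4 storage proteins stayed lower and past the threshold under each of 16 alternatives, with log2 fold changes of -3.87 to -2.93 for SP1, -3.24 to -2.25 for BJSP2-like, -1.58 to -0.64 for SSP and -1.22 to -0.28 for SP2. The 6 ratios moved by less than the spread between libraries in each alternative tried. Shares did move with the denominator. Without silk genes in the total the log2 change was -2.76 for SP1, -0.11 for SP2, -0.47 for SSP, -2.13 for BJSP2-like and -0.83 for the 4 together. Without silk and 30 kDa lipoprotein genes it was -2.89 for SP1, -0.24 for SP2, -0.60 for SSP and -0.96 together. As a share of summed FPKM it was -0.25 for SP2, -0.62 for SSP and -0.95 together.

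Calls over all genes were 8604 higher and 452 lower with library size alone, 6625 and 406 with limma-trend on log2(FPKM + 1), and 6601 and 406 on log2(FPKM + 0.1). With library size alone the lists gave 6 higher and 1 lower for yolk and sex genes, 21 and 2 for juvenile hormone, 10 and 3 for ecdysone, and 1 lower of the 2 other genes named as hexamerin or arylphorin. DESeq2's Wald test gave 1 higher and 1 lower yolk and sex gene. Leaving out each library gave 1 to 3 lower, with the 1 without siNC replicate 1. UFBP1 turned to -0.14 with upper quartile scaling and passed (edgeR adjusted p = 0.0406), and ran from -0.062 to 0.0573 with each library left out. The cause of these changes was not tested.

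With the replicate number as a replicate block, 4019 genes were higher and 2823 lower, the SP1 log2 fold change was -3.73, and 1 yolk and sex gene was lower. Equal numbers did not deviate together (correlations of 0.0242, -0.0187 and 0.0184), and not every library correlated best with its own number, so the numbers were not read as pairs.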
